A study of Homo sapiens with 18 samples.

Results

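The step from 1 to 10 ug/ml doxycycline was measured in an inducible NRAS subclone and corrected by the same step in the line it came from. THP1 is a human acute monocytic leukemia line whose labels give a heterozygous NRAS G12D mutation. B11 is 1 subclone of THP1. It carries a lentiviral NRAS G12V transgene that doxycycline switches on, together with GFP, and the transgene was made resistant to the guides used on it. Cas9, a puromycin vector and a pair of guide RNAs placed around the start codon of NRAS were then brought into these cells, and the labels call B11 heterozygous for NRAS G12V. Both lines were kept for 5 days in RPMI with 10% fetal bovine serum and 0, 1 or 10 ug/ml doxycycline, and RNA was sequenced from 3 plates per line and dose, lettered A, B and C. The THP1 controls received the drug but hold neither the transgene nor the GFP, Cas9 and guide vectors. The plates of a line came from a single grown-out culture, so the spread between them is that of parallel plates.

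For each gene the step in a line is its mean log2(FPKM + 1) at 10 ug/ml minus that at 1 ug/ml, where FPKM is a fragment count normalized for transcript length and sequencing depth. The step difference is the B11 step minus the THP1 step. It used 12 of the 18 libraries, 3 in each of 4 groups. Of 60658 gene IDs, 17555 had at least 1 FPKM in at least 3 libraries and were tested. The comparison asks what more doxycycline changed in B11 beyond what it changed in the parent line. More transgene induction and a response of the subclone or its vectors to more drug cannot be told apart in it.

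RAS proteins are membrane-bound switches that, when loaded with GTP, pass growth factor signals to RAF, MEK and ERK and to phosphoinositide 3-kinase, and mutations at glycine 12 hold them in the loaded state. ERK then drives early genes such as EGR1 and its own brakes such as the Sprouty and DUSP families. In myeloid leukemia cells, RAS signalling is known to affect growth and monocytic differentiation. Doxycycline also acts without a transgene, because it inhibits mitochondrial translation.

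The files imply about 9600000 to 13800000 fragments per library, and replicates of a group correlated at r = 0.938 to 0.957 across genes. All 12 markers of a myeloid leukemia line were tested. They summed to 1731 to 2161 FPKM in the THP1 libraries compared and to 1368 to 1559 FPKM in those of B11. Of 12 lymphoid markers 5 were tested, with CD3E, CD3G and MS4A1 at 0 throughout. The 12 summed to 5.31 to 24.2 FPKM in the THP1 libraries compared and to 167 to 205 FPKM in those of B11. The highest value of a single lymphoid marker was 199 FPKM, so a single gene made up most of the sum in its library. Erythroid and megakaryocyte markers summed to 6.28 to 14.4 FPKM and epithelial and fibroblast markers to 0.763 to 4.62 FPKM. One ID without a gene name stood at 76850.1 FPKM in library B and 42501 FPKM in library C of B11 at 1 ug/ml, which was 6.51% and 3.76% of each library's sum, and at 1.95e-37 FPKM or less elsewhere. Every step difference uses these libraries. For the total counts, many lists and some genes, results are also given without both. That leaves 1 library in the group, assumed to vary like the others. Where no such result is given, it is not stated whether a call holds without them.

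NRAS itself (chr1:114704469-114716894, minus strand, GRCh38) checks the induction. Its level was 23.2, 21.5 and 25.5 FPKM in THP1 at 1 ug/ml and 23.7, 24.5 and 24.6 FPKM at 10 ug/ml. In B11 it was 24.4, 23.7 and 23.3 FPKM at 1 ug/ml and 27.99, 27.7 and 28.2 FPKM at 10 ug/ml. Only the B11 groups did not overlap. The B11 step of 0.22 passed the test (SE 0.07, adjusted p = 0.0487), whereas the step difference of 0.17 did not (SE 0.10, adjusted p = 0.39) and neither did the THP1 step of 0.05 (adjusted p = 0.885). Reads of the transgene and of the gene's own locus are not separated in these values.

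Across all genes, 814 step differences passed an adjusted p of 0.05 (4.64% of those tested), of which 395 were higher (2.25%) and 419 lower (2.39%). Of these, 88 higher and 178 lower genes differed by at least 2-fold on the log2(FPKM + 1) scale. The B11 step alone gave 2249 calls (12.8%), with 999 higher (5.69%) and 1250 lower (7.12%), and the THP1 step gave 52 (0.296%), with 9 higher (0.0513%) and 43 lower (0.245%). Medians over all genes tested were 0.00 for the step difference and -0.01 for each step. Genes called higher had a median B11 step of 0.52 and a median THP1 step of -0.13, and for 72 of them (18.2%) the THP1 step was the larger in size. Genes called lower had medians of -0.79 in B11 and 0.08 in THP1, and the THP1 step was the larger for 23 (5.49%). Scaling each library to a fixed sum over named IDs moved the split to 305 higher and 560 lower, with the median of all genes at -0.06. Without library C of B11 at 1 ug/ml the count was 502 (247 higher, 255 lower), and without libraries B and C it was 232 (122 higher, 110 lower).

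**Figure D1:**
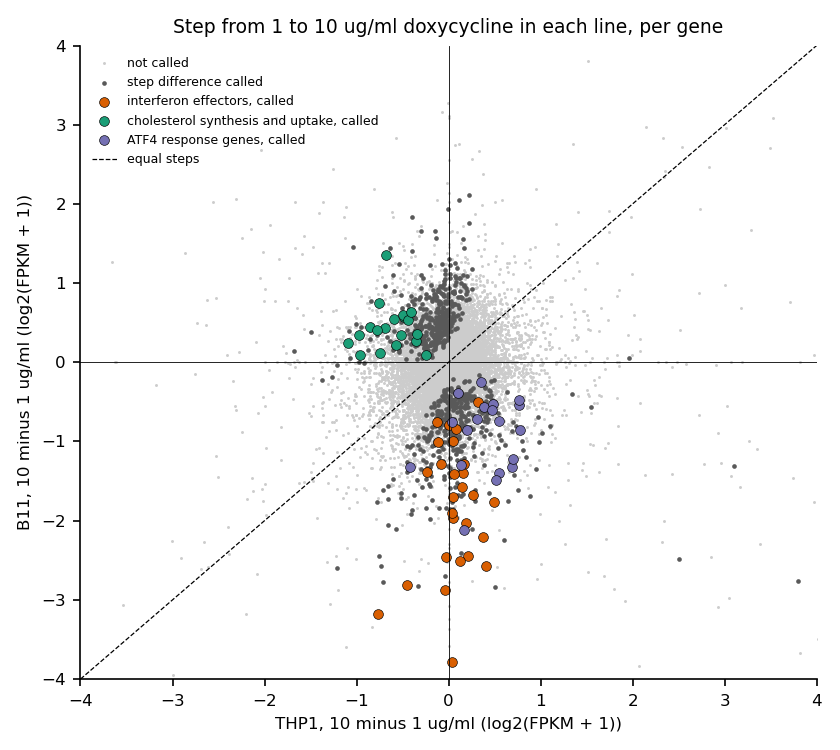
Each point is 1 of the tested genes, with its THP1 step on the x axis and its B11 step on the y axis (log2(FPKM + 1) at 10 minus 1 ug/ml). Called step differences are dark, called members of 3 lists are coloured, the dashed line marks equal steps, and 52 genes beyond 4 on an axis, none of them called, are not drawn. Called interferon effectors lie below 0 on the y axis and on both sides of 0 on the x axis, from -0.77 for TRIM22 to 0.49 for IFI44L. Called cholesterol genes lie to the left of 0 and called ATF4 response genes mostly to the right.

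Interferon effectors held 8 of the 12 most negative step differences of abundant protein-coding genes. These are the antiviral proteins that interferons switch on through a complex with STAT2 and IRF9. Of 51 tested members, 27 fell in the step difference and none rose, with a list median of -0.99 against 0.00 for all genes. In the B11 step 38 fell, and in THP1 no member passed in either direction and the median step was 0.01. Without B11 libraries B and C at 1 ug/ml, 14 fell and the median was -1.09.

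ISG15, a ubiquitin-like modifier, stood at 140.2, 161 and 133 FPKM in B11 at 1 ug/ml and at 37.8, 42.3 and 33.6 FPKM at 10 ug/ml. THP1 had 27.8, 28.9 and 26.6 FPKM and then 30.7, 30.03 and 25.2 FPKM. The B11 libraries at 1 ug/ml were thus the high ones, and those at 10 ug/ml lay just above the THP1 range; the step difference was -1.94 (SE 0.15, adjusted p = 4.64e-06). IFI6, a mitochondrial and ER protein with antiviral action, went from 220.2, 237 and 207 FPKM to 39.4, 38.9 and 39.7 FPKM in B11, while THP1 stayed between 77.6 and 85.9 FPKM. Its step difference of -2.43 (SE 0.10, adjusted p = 1.07e-08) took B11 from above the THP1 range to below it. SIGLEC1, the sialic acid receptor CD169 of macrophages, went from 11.4, 11.7 and 10.9 FPKM to 0.832, 0.782 and 0.475 FPKM, with 1.4 to 2.21 FPKM in THP1 and a step difference of -2.83 (SE 0.24, adjusted p = 1.6e-05).

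The 2'-5' oligoadenylate synthetases make the messenger that activates RNase L. OAS3 was at 25.5, 34.7 and 29.7 FPKM in B11 at 1 ug/ml and at 3.02, 4.81 and 4.9 FPKM at 10 ug/ml, and its THP1 libraries ran from 5.62 to 14.1 FPKM. The step difference was -2.99 for OAS3 (SE 0.36, adjusted p = 0.000321), -2.63 for OAS2 and -2.36 for OAS1. IFIT1, which binds viral RNA caps, went from 11.01, 11.6 and 8.24 FPKM to 1.16, 1.31 and 1.9 FPKM in B11 (step difference -2.57, SE 0.25, adjusted p = 3.87e-05). IFI27 had the most negative value of the list, -3.82 (SE 0.77, adjusted p = 0.0115), from 80.3, 95.8 and 70.2 FPKM to 4.91, 6.62 and 3.85 FPKM in B11. Its THP1 libraries were spread from 1.67 to 12.2 FPKM. IFITM1, a membrane protein that blocks virus entry, and TRIM22 fell as well, by 2.66 and 2.40 on the log2 scale. IFI27, IFITM1 and TRIM22 were no longer called without B11 libraries B and C at 1 ug/ml (adjusted p = 0.0993, 0.0557 and 0.073).

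The undosed B11 libraries place these values. In 24 of the 27 called members (88.9%), all B11 libraries at 1 ug/ml lay above all those at 0 and at 10 ug/ml, a shape held by 6.17% of genes tested and by 50.4% of the genes called lower. The call uses the B11 libraries at 1 and 10 ug/ml too, so this share is a description. For example, ISG15 was at 41.8, 36.7 and 37.7 FPKM in undosed B11, close to its level at 10 ug/ml. IFI6 had 66.8, 58.9 and 73.7 FPKM there, above its 10 ug/ml level.

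**Figure D2:**
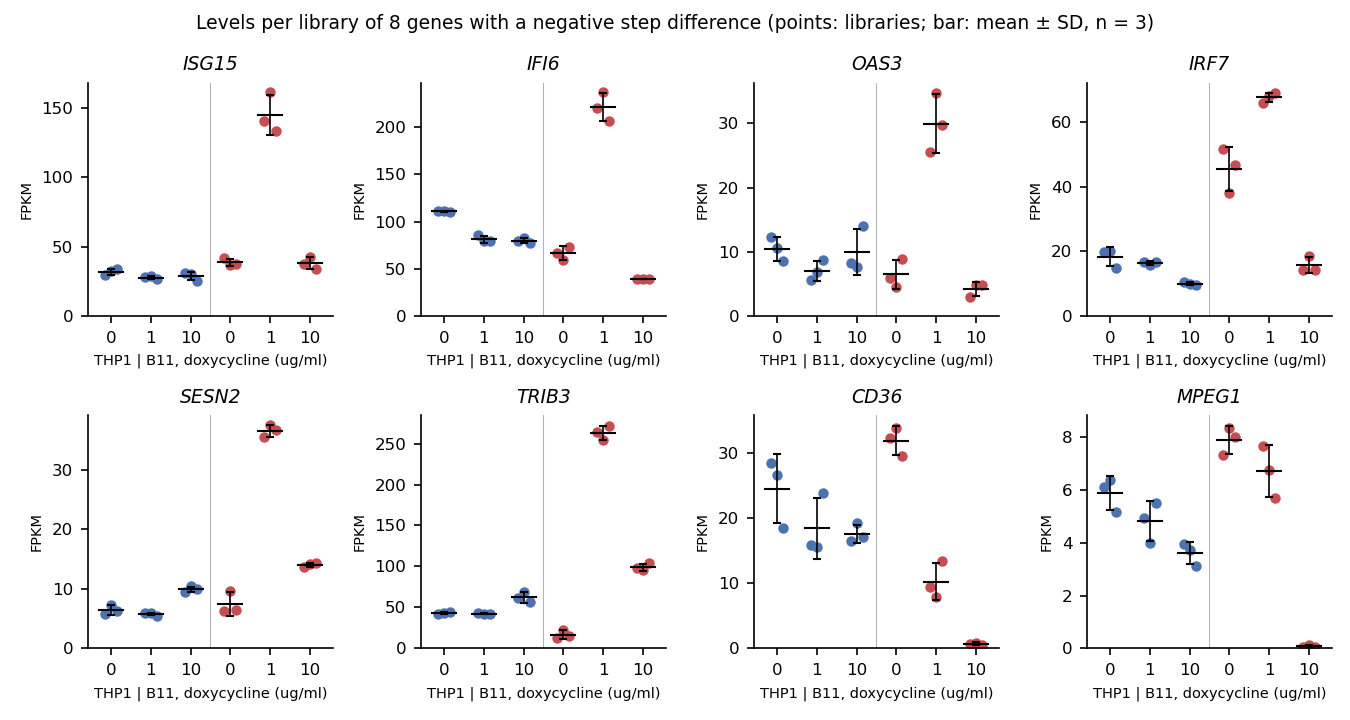
FPKM in every library (points) with the mean and SD of 3 libraries (bars), THP1 on the left and B11 on the right of each panel, at 0, 1 and 10 ug/ml doxycycline. In ISG15, IFI6, OAS3, IRF7, SESN2 and TRIB3 the B11 libraries at 1 ug/ml are the highest, whereas CD36 falls at each dose in B11 and MPEG1 is at 0.0522 to 0.121 FPKM at 10 ug/ml.

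The complex that holds STAT2 and IRF9 binds the interferon-stimulated response element, whose core was searched as GAAANNGAA on both strands in RefSeq promoters (GRCh38.p14, 250 bases before to 50 after the start). Of the 27 called effectors 21 had a promoter in the RefSeq table and 14 of these held the core (66.7%), as did 28 of the 40 tested members with a promoter (70.0%). The core was in 8.29% of all 27305 promoters and in 6.62% of those of tested genes. It was in 11.9% of the promoters of genes called lower and 4.47% of those of genes called higher. A match is a description of letters only. The windows below come from called members and are shown because the list has the most falls of all lists and the core is what these promoters share; capitals mark each match on either strand, and touching or overlapping matches form 1 run.
ISG15 promoter, chr1:1013371-1013429, plus strand: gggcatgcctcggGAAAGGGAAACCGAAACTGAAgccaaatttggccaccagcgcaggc
IFI6 promoter, chr1:27672252-27672310, minus strand: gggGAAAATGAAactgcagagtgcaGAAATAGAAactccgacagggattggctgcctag
IFI27 promoter, chr14:94110616-94110674, plus strand: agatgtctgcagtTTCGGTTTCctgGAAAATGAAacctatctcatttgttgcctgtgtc
IFIT1 promoter, chr10:89392496-89392554, plus strand: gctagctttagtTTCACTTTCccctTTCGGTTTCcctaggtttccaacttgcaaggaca
OAS3 promoter, chr12:112938437-112938473, plus strand: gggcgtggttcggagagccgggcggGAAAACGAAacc
EPSTI1 promoter, chr13:42992258-42992316, minus strand: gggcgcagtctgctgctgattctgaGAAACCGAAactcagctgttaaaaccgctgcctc
The ISG15 window holds 3 overlapping matches and the IFI27 window 1 match on each strand.

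Sensors and signalling proteins of the interferon pathway moved both ways. Of 34 tested, 2 rose and 7 fell, with a median of -0.16, where 2.25% of all genes were called higher and 2.39% lower. IRF7, which drives interferon genes, went from 65.9, 67.9 and 68.8 FPKM to 14.3, 18.6 and 14.2 FPKM in B11 while THP1 held 15.7 to 16.8 FPKM and then 9.54 to 10.5 FPKM, a step difference of -1.39 (SE 0.18, adjusted p = 0.000631). IRF9, the DNA-binding part of the STAT complex, went from 90.2, 98.6 and 91.95 FPKM to 36.6, 34.2 and 39.4 FPKM in B11 (step difference -1.34, adjusted p = 0.00102). STAT2 fell by 0.71, and MYD88, the adaptor of Toll-like receptors, by 1.61, the latter without a call when B11 libraries B and C at 1 ug/ml were left out (adjusted p = 0.0667). IFI16, IKBKE and ADAR also fell. In the other direction, IRF8, a transcription factor of monocytes and dendritic cells, went from 491, 485 and 458 FPKM to 994, 981 and 1043 FPKM in B11. THP1 stayed at 459 to 486 FPKM, and the step difference of 1.05 (SE 0.06, adjusted p = 2.56e-07) lay in B11. IFNGR1, a chain of the interferon gamma receptor, rose by 0.64. Of the 21 interferon genes none reached the level for testing, 19 were listed at 0 in all 18 libraries, and the highest value was 0.577 FPKM. Their summed level was 0.0872 to 0.577 FPKM in B11 at 1 ug/ml and 0 to 0.355 FPKM in THP1 at 1 ug/ml. It was 0 in all libraries of the other groups, and such low values are near the floor. TPM scaling over named IDs gave 11 falls among the sensors, and leaving out B11 libraries B and C at 1 ug/ml gave 1 rise and 3 falls.

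Monocyte and macrophage genes moved mostly downward. Of 49 tested, 15 fell and 2 rose (CD4 by 0.28 and MS4A7 by 0.76), with a median of -0.47, a median B11 step of -0.73 with 36 falls and a median THP1 step of -0.26 with 4 falls. In these bulk samples fewer cells of a type and less RNA per cell cannot be told apart. CD36, a scavenger and lipid receptor, was at 9.44, 7.94 and 13.4 FPKM in B11 at 1 ug/ml and at 0.735, 0.879 and 0.499 FPKM at 10 ug/ml, with 15.5 to 23.9 FPKM in THP1. Its step difference was -2.66 (SE 0.28, adjusted p = 0.000112). MPEG1, a pore-forming protein of macrophages, went from 7.68, 6.76 and 5.71 FPKM to 0.0656, 0.121 and 0.0522 FPKM in B11, and THP1 held 3.99 to 5.51 FPKM and then 3.14 to 3.97 FPKM. Neither line's groups overlapped, and the step difference was -2.50 (SE 0.20, adjusted p = 8.06e-06). C5AR1, the receptor for complement C5a, and CFP, the complement factor properdin, fell by 2.09 and 1.85. CD14, the lipopolysaccharide co-receptor, went from 5.63, 6.2 and 6.26 FPKM to 0.868, 1.3 and 0.764 FPKM in B11 (step difference -1.59, SE 0.22, adjusted p = 0.000871). CSF1R, CCR2, CX3CR1, TLR4, CYBB, LST1, AIF1, CD300LF, FCER1G and LILRB4 were the other members that fell, by 0.61 to 1.54. Without B11 libraries B and C at 1 ug/ml, 10 members fell and none rose.

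Myeloblast and granule genes, of which 15 were tested, held 2 falls and 1 rise around a median of 0.02. Over all genes tested 2.39% were called lower and 2.25% higher. FLT3, the receptor kinase of early myeloid cells, was at 32.6, 28.8 and 36.1 FPKM in B11 at 1 ug/ml and at 17.8, 15.7 and 14.4 FPKM at 10 ug/ml (step difference -0.76, SE 0.13, adjusted p = 0.00357). MS4A3 fell by 1.07, and SRGN, the proteoglycan core of granules, rose by 0.67, with 2169.8 to 2284 FPKM and then 3186 to 3692 FPKM in B11. The MS4A3 and SRGN calls did not hold without B11 libraries B and C at 1 ug/ml (adjusted p = 0.0638 and 0.0709).

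ATF4 response genes, which cells raise for amino acid supply, transfer RNA charging and stress, fell in B11 and had positive steps in THP1. Of 43 tested, 19 fell and none rose, with a median of -1.01. The median step was -0.56 in B11, with 18 falls, and 0.37 in THP1, where 40 of 43 steps were positive and 1 rise passed the test. SESN2, which restrains mTORC1, was at 35.5, 37.5 and 36.7 FPKM in B11 at 1 ug/ml and at 13.6, 14.1 and 14.3 FPKM at 10 ug/ml. In THP1 it went from 5.93, 5.91 and 5.5 FPKM to 9.53, 10.4 and 9.93 FPKM. The groups overlapped in neither line, and SESN2 fell in B11 (adjusted p = 1.24e-05) and rose in THP1 (adjusted p = 0.0426), for a step difference of -2.02 (SE 0.18, adjusted p = 2.45e-05). TRIB3, a pseudokinase that feeds back on ATF4, went from 264, 254 and 271 FPKM to 97.9, 95.5 and 104 FPKM in B11 while THP1 held 41.5 to 42.6 FPKM and then 56.5 to 68.8 FPKM (step difference -1.95, SE 0.21, adjusted p = 0.000115).

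MTHFD2, of mitochondrial folate metabolism, was at 433, 389 and 394 FPKM in B11 and then at 249.6, 304 and 289 FPKM, against 120.5 to 126 FPKM and then 157 to 179.5 FPKM in THP1. Its step difference was -1.01 (SE 0.20, adjusted p = 0.00863). NARS, which charges asparagine transfer RNA, fell by 0.60 (SE 0.11, adjusted p = 0.00562), and the transcription factor CEBPB fell by 1.05. The NARS steps were -0.25 in B11 and 0.35 in THP1. ASNS, STC2, NUPR1, SLC6A9, WARS, VEGFA, JDP2, GPT2, GARS, SLC1A4, SLC3A2, DDIT4, SLC38A2 and CEBPG were the other members that fell, by 0.49 to 2.29. ATF4 itself was at -0.93 with an adjusted p of 0.052. In all 19 called members the B11 libraries at 1 ug/ml lay above those at 0 and 10 ug/ml. That shape was held by 6.17% of genes tested and by 50.4% of the genes called lower. The call uses the B11 libraries at 1 and 10 ug/ml too, so the count is a description. In B11 the summed FPKM of the list was 7251 to 7447 at 1 ug/ml and 5034 to 5335 at 10 ug/ml. In THP1 it was 2781 to 2904 and then 3585 to 3940.4. The count of falls was 12 without THP1 library C at 1 ug/ml, A or B at 10 ug/ml, or B11 library A at 1 or at 10 ug/ml, 11 without B11 library C at 1 ug/ml, 31 when only the 4 groups were fitted, and 4 without B11 libraries B and C at 1 ug/ml, where the median was -0.99. CEBPB and MTHFD2 were not called in that last setting (adjusted p = 0.0909 and 0.0583). A core of the ATF4 element, TGATGNAA, was in 2 of 13 promoters of called members (15.4%) and in 3.67% of all promoters. The ASNS window is shown as the member whose match lies before the start.
ASNS promoter, chr7:97872444-97872501, minus strand, match in capitals: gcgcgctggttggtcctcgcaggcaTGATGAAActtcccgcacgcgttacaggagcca

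Chaperones of the endoplasmic reticulum did not follow the ATF4 list. Of 22 tested, 4 rose (HSP90B1, PDIA4, SDF2L1 and MANF) and 2 fell (HERPUD1 and XBP1). Over all genes tested 2.25% were called higher and 2.39% lower. HSP90B1, the chaperone GRP94, was at 482, 449.9 and 461 FPKM in B11 at 1 ug/ml and at 614, 624 and 584 FPKM at 10 ug/ml, and THP1 ran from 633 to 739.6 FPKM (step difference 0.49, SE 0.07, adjusted p = 0.000909). PDIA4, a disulfide isomerase, rose by 0.63 (adjusted p = 0.00278) and SDF2L1 by 0.56 (adjusted p = 0.00555). The calls of MANF (0.93) and XBP1 (-0.58) were lost on leaving out any one of 7 and 8 of the 12 libraries, with adjusted p up to 0.0617 (without THP1 library B at 1 ug/ml) and 0.0735 (without B11 library C at 1 ug/ml). Without B11 libraries B and C at 1 ug/ml 1 member rose, and PDIA4 and SDF2L1 were not called (adjusted p = 0.0568 and 0.0513).

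Cholesterol synthesis and uptake was the list with the most rises. SREBP2 drives these genes when sterols run low. Of 25 tested, 19 rose and none fell, and all 25 values were positive with a median of 0.97. Both lines contributed: the B11 median step was 0.34 with 10 rises, and the THP1 median step was -0.59 with 9 falls and all 25 steps negative. IDI1, the isopentenyl diphosphate isomerase, was at 33.95, 30.5 and 33.3 FPKM in B11 at 1 ug/ml and at 59.6, 63.6 and 44.9 FPKM at 10 ug/ml. In THP1 it went from 34.7, 33.04 and 41.3 FPKM to 26.1, 18.2 and 19.5 FPKM, so that both lines started alike and ended apart without overlap. Its step difference was 1.51 (SE 0.21, adjusted p = 0.000876). SQLE, squalene epoxidase, went from 35.9, 31.6 and 28.01 FPKM to 51.4, 50.4 and 39.5 FPKM in B11 and from 98.2, 96.9 and 111 FPKM to 64.8, 68.1 and 69.2 FPKM in THP1 (step difference 1.14, SE 0.14, adjusted p = 0.000485). THP1 remained the higher line.

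INSIG1, which holds SREBPs back, went from 106, 109 and 102 FPKM to 136, 169.5 and 118 FPKM in B11 and from 138, 141 and 136 FPKM to 75.3, 90.2 and 75.6 FPKM in THP1 (step difference 1.19, SE 0.15, adjusted p = 0.000492). FDFT1, squalene synthase, had a step difference of 1.05 (SE 0.12, adjusted p = 0.000264) and rose in B11 while it fell in THP1. FDPS, farnesyl diphosphate synthase, showed another pattern: its B11 libraries overlapped, at 495, 539 and 498 FPKM and then 575, 639 and 462 FPKM, while THP1 went from 891, 934 and 872 FPKM to 541, 566 and 497 FPKM. Its step difference of 0.87 (SE 0.13, adjusted p = 0.00142) thus lay mostly in the THP1 fall of 0.75 (adjusted p = 0.00425). MSMO1, a methylsterol oxidase, had the highest value of the list, 2.04 (SE 0.33, adjusted p = 0.00241), with 13.9, 12.9 and 9.42 FPKM and then 37.3, 34.4 and 25.9 FPKM in B11. HMGCS1, MVK, MVD, ACAT2, CYP51A1, NSDHL, EBP, SC5D, DHCR7, STARD4 and SREBF2 were among the other members that rose, by 0.34 to 1.32. Without B11 libraries B and C at 1 ug/ml, 14 members rose and the median was 1.02. In B11 11 of the 19 called members (57.9%) increased without overlap from 0 to 1 to 10 ug/ml, a shape held by 5.01% of genes tested and 36.7% of genes called higher. The core of the sterol element, CACCCCAC, was in 1 of 14 promoters of called members (7.14%) and 2.72% of all promoters.

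**Figure D3:**
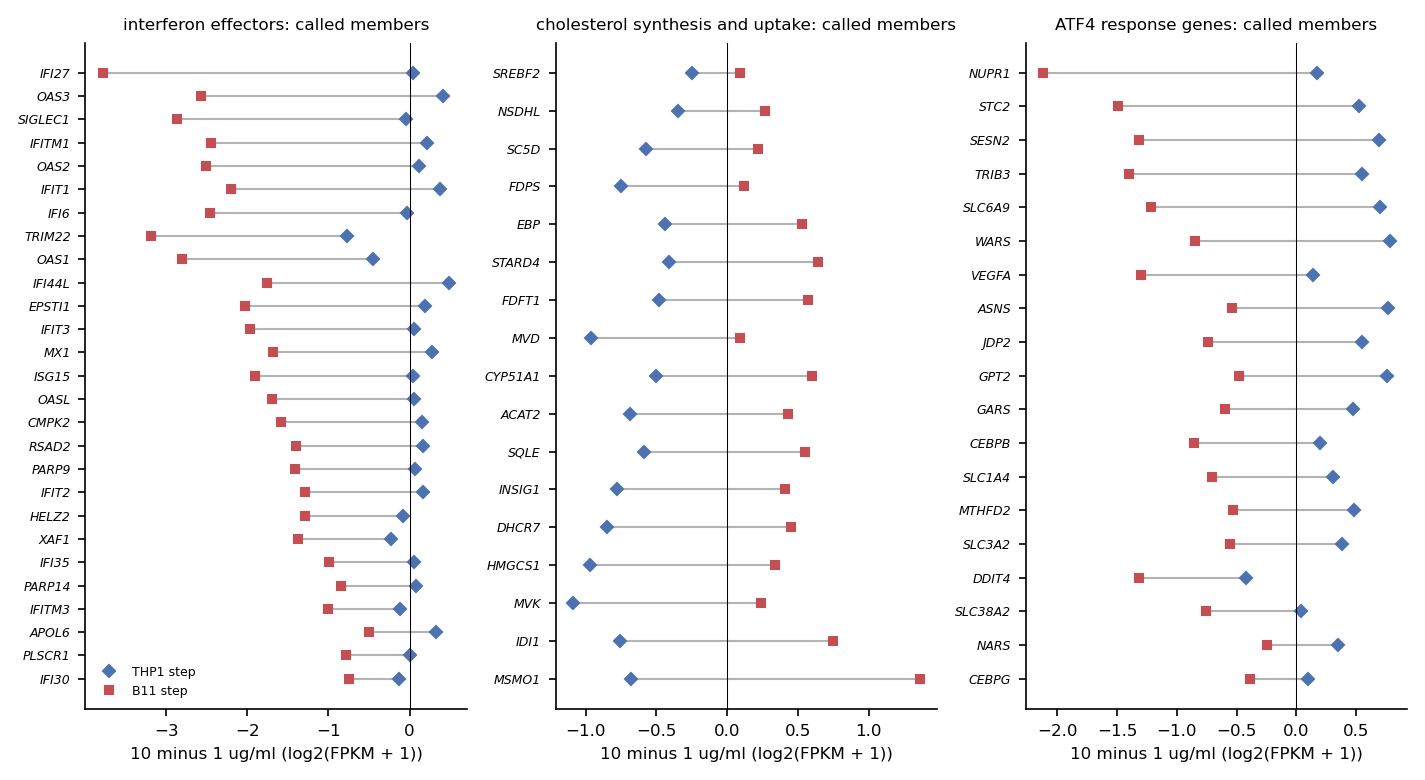
Steps of called members of 3 lists, apart from a few that are not reported by name, as the log2(FPKM + 1) difference between 10 and 1 ug/ml in THP1 (blue diamonds) and B11 (red squares), joined by a grey line whose length is the step difference. In the interferon effectors THP1 steps lie on both sides of 0, from -0.77 for TRIM22 to 0.49 for IFI44L, in the cholesterol genes THP1 steps are negative and B11 steps positive, and in the ATF4 genes most THP1 steps are positive.

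Fatty acid synthesis and LXR targets gave 3 rises and 1 fall among 17, where 2.25% of all genes were called higher and 2.39% lower. FASN, fatty acid synthase, was at 172, 187 and 195 FPKM in B11 at 1 ug/ml and at 279.7, 246 and 239 FPKM at 10 ug/ml, against 199 to 215 FPKM and then 148 to 180.5 FPKM in THP1 (step difference 0.81, SE 0.15, adjusted p = 0.00653). ELOVL5, an elongase, rose by 0.71 (adjusted p = 0.000871). ACLY, which makes cytosolic acetyl-CoA, was at 0.56 and SREBF1, which encodes SREBP1, at -0.55. The latter 2 calls were lost without any one of 3 and 10 libraries, with adjusted p up to 0.0578 and 0.104, both without B11 library C at 1 ug/ml. Without B11 library C at 10 ug/ml the list had 5 rises.

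Outputs of the RAS and ERK pathway were next examined. Of 26 tested output and feedback genes 4 rose and 1 fell, where 2.25% of all genes were called higher and 2.39% lower. Their median was 0.54, the median B11 step 0.30 with 7 rises and the median THP1 step 0.05 with no call. SERPINB2, the plasminogen activator inhibitor PAI-2 (chr18:63871692-63903890, plus strand), was at 19.3, 20.7 and 19.7 FPKM in B11 at 1 ug/ml and at 88.6, 87.4 and 90.9 FPKM at 10 ug/ml. THP1 ran from 42.1 to 52.99 FPKM, between both B11 groups, and undosed B11 stood at 67.9, 62.04 and 83.5 FPKM. The step difference was 1.89 (SE 0.12, adjusted p = 8.12e-07), and the gene shares part of its locus with SERPINB10, which rose by 1.77, so their reads may be split between them. EGR1, an ERK-driven transcription factor, went from 21.6, 20.3 and 20.5 FPKM to 52.7, 46.2 and 48.1 FPKM in B11, while THP1 stayed at 2.61 to 4.05 FPKM (step difference 1.10, SE 0.16, adjusted p = 0.0014). KCNN4, a calcium-gated potassium channel, was at 0.78 (adjusted p = 0.0165). PLAUR, the urokinase receptor, was at 0.56 and SPRY2, a feedback inhibitor, at -0.53. Both calls were lost when any one of the 12 libraries was left out. The adjusted p reached 0.0956 and 0.114 (both without B11 library B at 10 ug/ml). In all, PLAUR and SPRY2 lost the call in 19 and 18 of 24 alternatives that include B11 libraries B and C at 1 ug/ml. The PLAUR steps were 0.22 in B11 and -0.34 in THP1, neither of them called. Without B11 libraries B and C at 1 ug/ml 2 members rose, and KCNN4 was not called (adjusted p = 0.0746).

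Among 19 immediate early genes JUNB rose by 0.56 (adjusted p = 0.015) and JUN fell by 0.65 (adjusted p = 0.0418). The JUNB steps were 0.24 in B11 and -0.31 in THP1, neither of them called. The JUN steps were -1.07 in B11 and -0.42 in THP1. The JUN call was lost without any one of 10 libraries (adjusted p up to 0.105, without B11 library B at 1 ug/ml), and neither held without B11 libraries B and C at 1 ug/ml (adjusted p = 0.0932 for JUNB and 0.277 for JUN). Of 34 components that carry the signal from RAS to ERK only RASSF2, a RAS association protein, passed, at -0.52, and its call was lost without any one of 9 libraries (adjusted p up to 0.0778, without THP1 library B at 1 ug/ml). The median of these components was 0.06. Over all genes tested 4.64% were called. The calls among the immediate early genes and among these components cannot be told apart from that share. Plasminogen activation genes gave 3 rises of 8, namely SERPINB2, PLAUR and S100A10, where 2.25% of all genes were called higher. S100A10, a plasminogen receptor subunit, was at 117, 119 and 119 FPKM in B11 and then at 112, 121 and 84.2 FPKM, overlapping groups, whereas THP1 went from 70.5, 72.5 and 76.8 FPKM to 31.5, 28.9 and 29.2 FPKM. Its step difference of 1.09 (SE 0.16, adjusted p = 0.0015) lay in the THP1 fall of 1.27 (adjusted p = 0.000383).

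**Figure D4:**
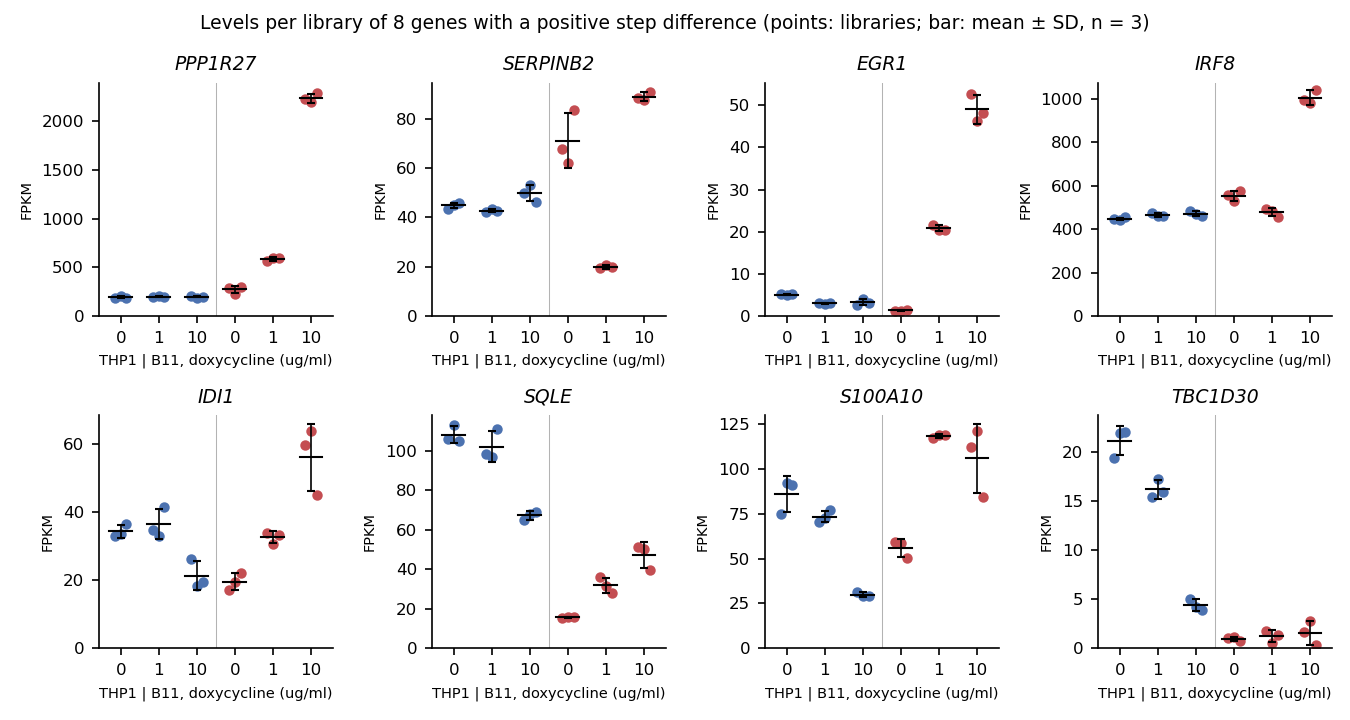
FPKM in every library (points) with the mean and SD of 3 libraries (bars), THP1 on the left and B11 on the right of each panel, at 0, 1 and 10 ug/ml doxycycline. PPP1R27, EGR1 and IRF8 are flat or low in THP1 and highest in B11 at 10 ug/ml, IDI1 and SQLE move in opposite directions from 1 to 10 ug/ml, and S100A10 and TBC1D30 drop in THP1 while their B11 groups overlap.

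Metabolic lists were examined next. Among 30 glycolysis and hypoxia genes 8 rose and none fell, with a median of 0.51, a B11 median step of 0.14 and a THP1 median step of -0.35 with 29 of 30 steps negative. NDRG1, a hypoxia and stress gene, was at 74.5, 78.5 and 76.3 FPKM in B11 and then at 134, 123 and 73.7 FPKM, and in THP1 it went from 128, 125 and 103 FPKM to 72.3, 55.5 and 49.5 FPKM (step difference 1.48, SE 0.32, adjusted p = 0.015). Library C of B11 at 10 ug/ml was the low one there. GPI, glucose-6-phosphate isomerase, rose by 0.67 (adjusted p = 0.0116). HK2, PFKFB4, ALDOA, SLC2A1, P4HA1 and HILPDA were the other called members, and the calls of SLC2A1, P4HA1 and HILPDA were lost without any one of 7, 5 and 8 libraries. The count was 13 without B11 library C at 10 ug/ml, 2 to 4 without any one of 10 other libraries (all but THP1 library B at 10 ug/ml), 5 with no filter, 4 in a fit of the 4 groups alone and 0 without B11 libraries B and C at 1 ug/ml, where the median was 0.50. TXNIP, which restrains glucose uptake, went from 379, 423 and 410.4 FPKM to 117, 111 and 103 FPKM in B11 while THP1 held 313 to 357 FPKM and then 242 to 261 FPKM (step difference -1.46, SE 0.13, adjusted p = 2.35e-05). Its relative ARRDC4 fell by 1.14, and both were called without B11 libraries B and C at 1 ug/ml. They were the only calls among 20 FOXO and glucose restraint genes, where 4.64% of all genes were called.

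Respiratory chain genes are of interest because the drug itself acts on mitochondria. All 13 mitochondrially encoded genes had negative step differences, with a median of -0.37. Their median step was -0.32 in B11, where all 13 steps were negative and 6 were called. In THP1 the median step was 0.01, with 7 steps positive, 6 negative and none called. MT-CO1 and MT-CYB had called step differences of -0.60 and -0.64. Both calls were lost without any one of 10 and 11 libraries, with adjusted p up to 0.106 and 0.103 (without B11 library C at 1 ug/ml). MT-CO1, a subunit of cytochrome c oxidase, was at 3578, 4083 and 4117 FPKM in B11 and then at 2982, 2769 and 2075 FPKM, and THP1 ran from 3502 to 3672 FPKM. Of 38 nuclear subunits 37 were positive, with a median of 0.23. Rises were called for 3 (UQCRC1, UQCRH and NDUFS7, at 0.42 to 0.48), where 2.25% of all genes were called higher. That count was 0 without a variance trend, 5 without THP1 library B at 10 ug/ml and 0 without B11 libraries B and C at 1 ug/ml. The NDUFS7 call was lost without any one of 9 libraries (adjusted p up to 0.0764, without B11 library A at 1 ug/ml). MRPS5 was the single call among 30 mitochondrial ribosomal proteins, at 0.50, where 4.64% of all genes were called. The MRPS5 call was lost without any one of 6 libraries (adjusted p up to 0.0597, without THP1 library B at 1 ug/ml). The share of FPKM from mitochondrially encoded genes was 3.86% to 4.02% in B11 at 1 ug/ml and 2.49% to 3.71% at 10 ug/ml, with no overlap, and its part in the other results was not tested.

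By size, the highest step differences of protein-coding genes at 5 FPKM or more came from a mixed set. PPP1R27, a protein phosphatase 1 regulatory subunit (chr17:81833492-81835050, minus strand), was at 568, 599.8 and 591 FPKM in B11 and then at 2228, 2193 and 2286 FPKM. THP1 ran from 190.5 to 207 FPKM, undosed B11 had 228 to 302 FPKM, and the step difference was 1.94 (SE 0.11, adjusted p = 2.56e-07). MACROD1, which removes ADP-ribose, was at 11.3, 12.97 and 12.9 FPKM and then at 37.4, 47.3 and 39.2 FPKM (1.96, SE 0.28, adjusted p = 0.00121). SMAD6, an inhibitor of BMP signalling, rose by 1.71 (adjusted p = 0.004) and C16orf86 by 1.81 (adjusted p = 0.00663). AKR1C1, an aldo-keto reductase, was at 7.84, 8.81 and 11.7 FPKM in B11 and then at 32.8, 28.1 and 78.7 FPKM, and at 0.547 FPKM or less in THP1 (1.94, SE 0.43, adjusted p = 0.0175). Close copies share its reads. Its call was lost at a pseudocount of 0.1, in a fit of the 4 groups alone and without B11 libraries B and C at 1 ug/ml (adjusted p = 0.229, 0.0518 and 0.0805). CACNB1, a calcium channel subunit, had the highest value, 2.23 (SE 0.49, adjusted p = 0.0184), lost without B11 library C at 1 ug/ml (adjusted p = 0.0542). LACTB and GNAI1 completed the 12, at 1.61 and 1.54, with calls lost without any one of 8 and 12 libraries (adjusted p up to 0.0644, without THP1 library B at 1 ug/ml, and 0.102, without B11 library C at 10 ug/ml).

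Of the 12 most negative genes, those outside the interferon and monocyte lists were G0S2 and U2AF1. G0S2, an inhibitor of triglyceride lipase, was at 84.1, 77.4 and 80.9 FPKM in B11 and then at 9.4, 12.4 and 9.64 FPKM, and at 16.7 to 20.8 FPKM and then 25.1 to 28.01 FPKM in THP1 (-3.34, SE 0.36, adjusted p = 0.000113). U2AF1, a splicing factor, had the lowest value, -6.56 (SE 1.57, adjusted p = 0.0264), but its libraries scattered within groups. They were at 11.7, 24.6 and 27.3 FPKM and then 0.392, 0.276 and 15.6 FPKM in B11, and at 0.509, 0.173 and 0.309 FPKM and then 37.7, 10.5 and 13.2 FPKM in THP1. Its near-identical copy U2AF1L5 ran from 0.0469 to 24.4 FPKM, so reads may be divided unevenly over the pair, and the call was lost without any one of 8 libraries (adjusted p up to 0.0699, without B11 library B at 10 ug/ml).

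In some genes the parent line made the difference. TBC1D30, a Rab GTPase activator, was at 15.4, 17.2 and 15.9 FPKM in THP1 at 1 ug/ml and at 5.03, 4.23 and 3.85 FPKM at 10 ug/ml, while B11 ran from 0.34 to 2.75 FPKM (step difference 1.82, SE 0.41, adjusted p = 0.0198). The call was lost without B11 library B at 1 ug/ml (adjusted p = 0.0507) and at pseudocounts of 0.1 and 0.5 (adjusted p = 0.151 and 0.055). S100P, a calcium-binding protein, went from 28.5, 24.1 and 17.6 FPKM to 53.96, 49.6 and 47.6 FPKM in THP1 and from 140.4, 132 and 146 FPKM to 89.7, 77.7 and 71.8 FPKM in B11 (-1.90, SE 0.27, adjusted p = 0.00107). It rose in one line and fell in the other, both without overlap. C6orf223, at 1.15, and PDZD8, a lipid transfer protein, at -1.90, were lost without any one of 7 and 11 libraries (adjusted p up to 0.0601, without THP1 library C at 10 ug/ml, and 0.103, without B11 library C at 1 ug/ml).

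Several lists that describe growth and identity held few or no calls. With 4.64% of all genes called, lists of this length cannot be told apart from that share. Of 44 cell cycle genes none passed, with a median of 0.03 and a range of -0.51 to 0.44. CDC20, an activator of the anaphase-promoting complex, was at 609.8, 706 and 668 FPKM in B11 and then at 551, 565 and 517 FPKM, with a step difference of -0.17 (SE 0.17, adjusted p = 0.66). Undosed B11 ran from 55.3 to 84.7 FPKM. Among 32 MYC targets and ribosome biogenesis genes only NOP58, a box C/D snoRNP protein whose introns hold other RNA genes, passed, at -0.95 (adjusted p = 0.00124). None of 13 HOXA and MEIS1 genes, 10 telomerase and shelterin genes or 11 HLA class II genes passed, with medians of 0.13, 0.07 and 0.02. HOXA9 was at 84.3 to 85.9 FPKM in B11 at 1 ug/ml and 88.5 to 104 FPKM at 10 ug/ml (step difference 0.13, SE 0.10, adjusted p = 0.561).

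**Figure D5:**
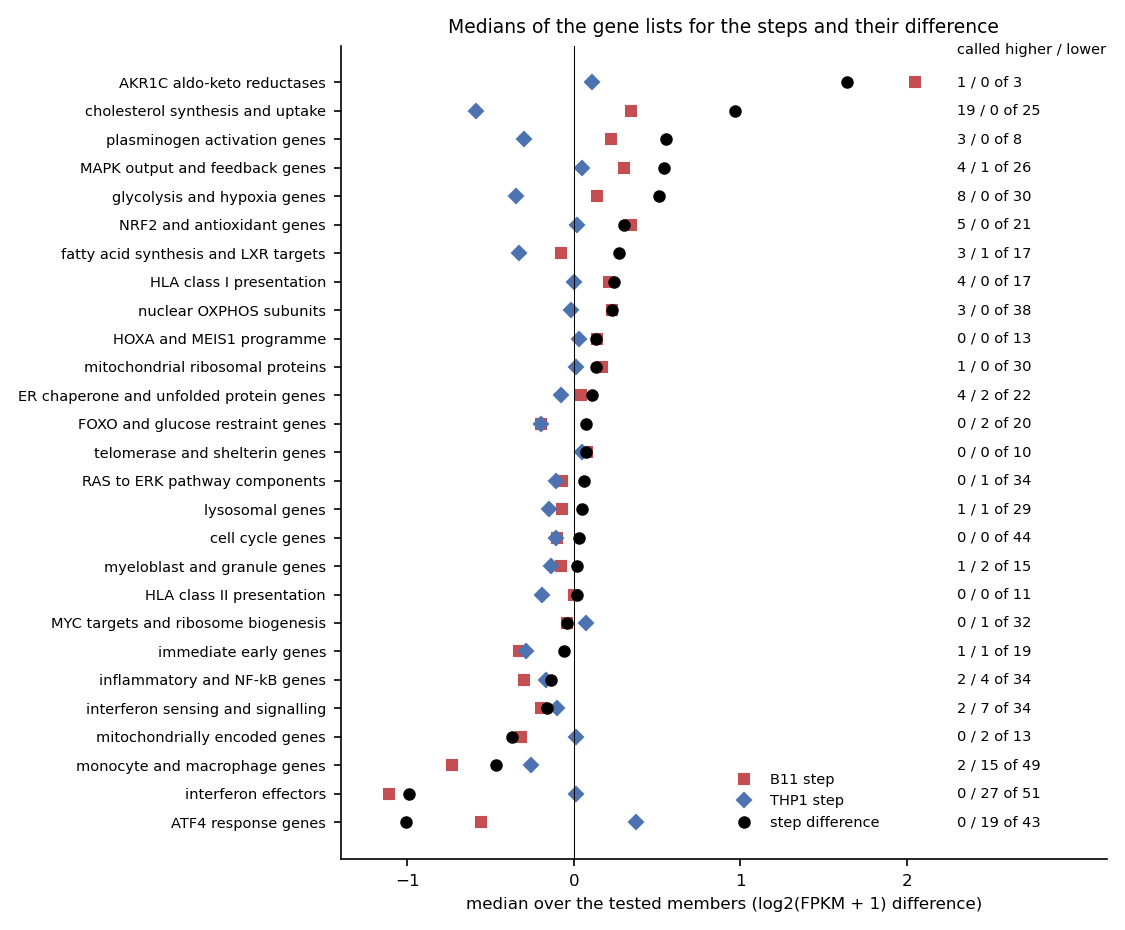
Median over the tested members of each list of the B11 step (red squares), the THP1 step (blue diamonds) and the step difference (black circles), in log2(FPKM + 1). Numbers at the right give members called higher and lower in the step difference of all members tested, from 0 of 44 cell cycle genes to 27 of 51 interferon effectors.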

How the data were processed

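RNA was sequenced from 18 libraries, 3 per line and dose. HISAT2, Cuffnorm and the build GRCh38 are named in the submitters' processing notes. Versions, and any use of strand in counting, were not given in the sources used here. One table deposited by the authors holds 1 value per gene ID and library, taken here as FPKM, since its header names no unit. Of 60658 IDs, 57047 were named through GENCODE release 29, and 3611 had no name. Depth was estimated from the value of 1 fragment in 17082 single-transcript genes, with no allowance for fragment length. No libraries were identical.

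Values were transformed as log2(FPKM + 1), so changes of low genes are understated. All genes that reached 1 FPKM in 3 or more libraries were fitted in limma 3.58.1 (R 4.3.3) with 6 group means over all 18 libraries and trended moderation, and p-values were adjusted by the Benjamini-Hochberg method over 17555 genes at 0.05. "Rose", "fell" and "called" refer to this test. Plates came from 1 culture per line, so p-values measure the spread between plates. Of the 104 genes the rule named, 38 overlap a gene on the other strand, and their reads cannot be told apart from it. Among them are ISG15, IFI6, OAS3, OAS2, IFIT1, TRIM22 (with TRIM5), MPEG1 (with DTX4), CD36 (with GNAT3), G0S2, MTHFD2, FDPS, FDFT1, IDI1, MACROD1 (with FLRT1 and OTUB1), C16orf86 (with ENKD1), LACTB (with RPS27L) and JUNB (with HOOK2). On the same strand, 26 of the named genes overlap a gene, and reads may be shared there too. IFITM1 (with IFITM2), HLA-B (with HLA-C) and HOXA9 (with HOXA10) are examples.

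The rule named NRAS, the 12 highest and 12 lowest called protein-coding genes with a group mean of at least 5 FPKM, up to 5 called members of each list by p (or the 2 most abundant where none passed), and the 6 called genes with the largest THP1 step where it exceeded the B11 step. Other list members are named only to complete a count, and some genes within the counts are not reported here by name. The members, the 32 lists and the tests were chosen with earlier results of these data known. In all, 25 alternatives were run. They were other pseudocounts, filters, scalings and moderation, the 4 groups alone, protein-coding genes alone, a replicate block, each of 12 libraries left out in turn, and B11 libraries B and C at 1 ug/ml left out together. Promoters came from RefSeq (GRCh38.p14).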

Additional observations from a re-analysis of the deposited data

Results flagged for a closer look

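The step from 1 to 10 ug/ml differed between the lines in 814 genes by the test of the difference itself. In 11 genes both steps were called and ran in opposite directions. Those with a rise in B11 and a fall in THP1 included 5 of sterol synthesis and its control, with step differences of 1.51 for IDI1, 1.05 for FDFT1, 1.14 for SQLE, 1.12 for ACAT2 and 1.19 for INSIG1. The others of that direction were ARPC1B, a subunit of the Arp2/3 complex, at 0.38, the proteoglycan CSPG4 at 0.99 and AL391832.2 at 1.70. SESN2 (-2.02), S100P (-1.90) and MLST8 (-0.85), a subunit of mTOR complexes, fell in B11 and rose in THP1. Another 7 genes were called in both lines in the same direction.

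An ID without a gene name, in no comparison above, stood at 76850.1 FPKM in library B and 42501 FPKM in library C of B11 at 1 ug/ml and near 0 in the other 16 libraries.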

How the results depend on the processing

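None of the 95 called genes named by the rule changed direction in the 25 alternatives. Across the 24 alternatives that include B11 libraries B and C at 1 ug/ml, 67 were called wherever they were tested and 28 lost the call in at least 1. Among the 67, SIGLEC1, IFIT1, MPEG1, CCL2 and C5AR1 were tested in only 23 of the 24. The remaining setting left out both libraries, and fewer of the 95 stayed called. That setting gave 232 calls for the step difference (122 higher, 110 lower), 611 for the B11 step and 18 for the THP1 step. It has fewer samples. Leaving out 1 library at a time gave 502 to 740 calls for the step difference, 247 to 383 higher and 255 to 359 lower, 1482 to 2298 for the B11 step and 13 to 76 for the THP1 step. The THP1 step gave 31 calls at a pseudocount of 0.1, 32 at 0.5, 34 with no filter, 28 without a variance trend and 18 with the replicate block; the cause was not tested. Plate letters did not pair the samples: over 18 pairs of libraries with the same letter in different groups, deviations correlated at -0.051 to 0.044. A replicate block by letter gave 728 calls for the step difference (347 higher, 381 lower). The NRAS step difference ranged from 0.10 to 0.23 over these alternatives and was never called. Depths of 9600000 to 13800000 fragments limit genes near 1 FPKM, and 3 plates of 1 culture limit every comparison.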

Other observations

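HLA class I genes, which present peptides to T cells and are often raised by interferons, moved against the interferon effectors. Of 17 tested 4 rose and none fell, with a median of 0.24, where 2.25% of all genes were called higher. HLA-B was at 740.2, 791 and 757 FPKM in B11 at 1 ug/ml and at 1057, 1009.8 and 1010.03 FPKM at 10 ug/ml, while THP1 ran from 436 to 495 FPKM (step difference 0.44, SE 0.08, adjusted p = 0.00431). HLA-E rose by 0.52, and close copies share reads in this family. PSME2 was called at 0.25, a call lost in 21 of 24 alternatives that include B11 libraries B and C at 1 ug/ml. They include leaving out any one of 11 libraries (adjusted p up to 0.112, without THP1 library B at 1 ug/ml). TPM scaling over named IDs gave PSME2 an adjusted p of 0.185. The PSME2 steps were 0.07 in B11 and -0.18 in THP1, neither of them called. The HLA-E call did not hold without B11 libraries B and C at 1 ug/ml (adjusted p = 0.104), where 2 members rose.

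Inflammatory genes split. Of 34 tested, TNF, CCL2, G0S2 and IL1RN fell, and CCL5 and CD44 rose. Over all genes tested 2.39% were called lower and 2.25% higher. TNF went from 23.5, 22.6 and 24.6 FPKM to 9.61, 9.73 and 4.42 FPKM in B11, while THP1 ran from 6.03 to 7.02 FPKM (step difference -1.62, SE 0.30, adjusted p = 0.0057). The chemokine CCL5 went from 238, 235 and 240.4 FPKM to 405, 427 and 376 FPKM in B11 with 47.1 to 55.7 FPKM in THP1 (0.84, SE 0.11, adjusted p = 0.000581). CD44, the hyaluronan receptor, rose by 0.83. TNF and CCL2 were not called without B11 libraries B and C at 1 ug/ml (adjusted p = 0.0699 and 0.0912).

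Of 21 NRF2 and antioxidant genes 5 rose and none fell, with a median of 0.30. FTL, the ferritin light chain, was at 4525, 4529 and 4525 FPKM in B11 and then at 6937, 7264 and 7601 FPKM, and at 5409 to 6611 FPKM in THP1 (0.74, SE 0.09, adjusted p = 0.000352). TKT, of the pentose phosphate pathway, rose by 0.64 and PRDX1, a peroxiredoxin, by 0.57. TXN and ME2, at 0.47 and 0.66, were each lost without any one of 7 libraries (adjusted p up to 0.0811, without B11 library B at 1 ug/ml, and 0.0614, without THP1 library C at 1 ug/ml). The count was 3 without THP1 library B or C at 1 ug/ml or C at 10 ug/ml, or without B11 library C at 1 ug/ml or B or C at 10 ug/ml. It was 2 without B11 libraries B and C at 1 ug/ml, where PRDX1 was not called (adjusted p = 0.073). Among 29 lysosomal genes only the cathepsins CTSL (0.66) and CTSZ (-0.61) were called, in opposite directions. Over all genes tested 4.64% were called, and a list of this length cannot be told apart from that share.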
